A study of Mus musculus with 12 samples.

Results

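Trp53, the mouse gene of the tumour suppressor p53, and 9 genes that p53 is known to switch on were followed in bone marrow-derived macrophages with and without miR-210. The 9 targets are Zmat3, Cdkn1a, Mdm2, Ccng1, Trp53inp1, Sesn1, Phlda3, Eda2r and Aen. The 10 genes were taken by name out of the 56941 genes counted, with earlier results of these data known, and each matched 1 identifier. Zmat3 had the largest fitted difference between the genotypes of the members tested, 1.25-fold higher in miR-210 KO than in WT M2 macrophages, but at an adjusted p of 0.064 it was not called. With IL-4, Phlda3 and Trp53 were called higher and Zmat3 lower in WT cells, and Phlda3 and Sesn1 higher in miR-210 KO cells. Such calls were common over all genes that could be called, at 23.6% higher and 21.8% lower in WT. In miR-210 KO the shares were 18.5% and 18.1%.

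p53 is a transcription factor that is made all the time and destroyed just as fast, because Mdm2, an E3 ubiquitin ligase and itself a p53 target, marks it for the proteasome. DNA damage, replication stress or loss of survival signals stop this degradation, so that p53 activity is set mostly at the protein level and is read at the RNA level from its targets. The targets halt the cell cycle (Cdkn1a, which encodes p21), act back on Mdm2 (Ccng1, cyclin G1), limit oxidative stress and growth signalling (Sesn1, Trp53inp1, Phlda3) or favour cell death (Eda2r, Aen), and Zmat3 is an RNA-binding protein that controls splicing and RNA stability. In macrophages, p53 and p21 are known to restrain proliferation and inflammatory gene expression. miR-210 is the microRNA best known for its induction by hypoxia.

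The macrophages were grown from C57BL/6J bone marrow monocytes, purified by magnetic removal of the other cell types, over 7 days in medium that held 20% serum and, as a source of M-CSF, 30% supernatant of L929 fibroblasts. WT M2 and miR-210 KO M2 cells then received 20 ng/mL IL-4 for 72 hours. WT M0 and miR-210 KO M0 cells (KO M0 for short) were controls, which the paper describes as kept under identical conditions but without IL-4. Each of the 4 groups had 3 libraries. The deletion came from a cross of floxed miR-210 mice with Gata-1 Cre mice, and KO and WT animals were bred from heterozygous parents, while the age of the animals and the number of animals behind a group are not given in the sources used here. P values therefore measure the spread between these libraries, which may be technical. Each group has its own batch label, so that batch and group cannot be told apart.

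Stranded libraries depleted of ribosomal RNA held between 7930525 and 10167695 counts. A level below is in CPM, counts scaled to a library of 1000000 with TMM factors, and a count of 0 allows up to 3 counts of a library, counting error only. Mir210, the deleted gene, had 1, 3 and 5 counts in WT M0, 1, 2 and 1 in WT M2, and no miR-210 KO library held a count of it. Libraries of longer RNA say little about the mature microRNA. The 6 macrophage markers summed to between 3320 and 4010 CPM in every library. The sum hides shifts of single markers with IL-4, where 3 had a positive and 3 a negative log2 fold change in each genotype. Fcgr1 moved most, to 0.128-fold in WT and 0.166-fold in miR-210 KO, and Mertk was at 0.397-fold and 0.535-fold. Markers of neutrophils (at most 5.36 CPM), erythroid cells (at most 4.42), B cells (at most 0.247), T cells (at most 0.222) and mast cells or basophils (at most 0.21) were near 0, and Ly6g, Ms4a1, Cd3e and Cd3g were at 0 throughout. The 5 fibroblast markers summed to between 0.889 and 1.24 CPM in WT M0, 1.78 and 2.29 in KO M0 and at most 0.875 in M2. The 4 dendritic cell markers summed to between 0.309 and 0.95 CPM in M0 and 10.1 and 17.9 in M2, nearly all of it Zbtb46. The M2 marker Arg1 went from 41 ± 8.5 to 1880 ± 76 CPM in WT, and without miR-210 from 73.5 ± 11 to 1930 ± 71 (SD, n = 3 each), where the M0 levels already differed (adjusted p = 0.034, edgeR). Retnla went from 0 to 430 ± 42 in WT and 379 ± 100 in KO, and Mrc1 from 1720 ± 290 to 2620 ± 120 and from 1640 ± 160 to 3050 ± 200. The libraries numbered 2 stood apart from the others of their M0 groups, with a chi-square per gene of 6.77 and 9.29 against 3.11 for the remaining pair in WT, and of 9.26 and 10.9 against 7.22 in miR-210 KO. In bulk RNA, fewer cells that express a gene and less of its RNA per cell cannot be told apart.

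The mature strands of the deleted microRNA are shown first, since a direct effect of miR-210 on a transcript usually runs through a match to its seed. RefSeq (GRCm38.p6) places both on the minus strand of chromosome 7, and capitals mark the seed, bases 2 to 8.
mmu-miR-210-3p (chr7:141221407-141221428): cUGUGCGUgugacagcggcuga
mmu-miR-210-5p (chr7:141221445-141221466): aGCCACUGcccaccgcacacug

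The 3' UTRs of the Ensembl canonical transcripts were searched for the complement of the miR-210-3p seed, the letters ACGCACA, on the transcript strand. Of the 10 members, Zmat3 and Mdm2 hold 1 such 7-base match each, and Mdm2 holds 1 further match to 6 bases (CGCACA, positions 2 to 7). The 7-base match occurs in 3.48% of the 20858 protein-coding genes with a 3' UTR, whose median length is 1082 bases, and the 6-base match in 9.26%. The 3' UTR of Zmat3 is 6692 bases long and that of Mdm2 1335. The stretches around the 3 matches are read 5′ to 3′ on the minus strand of GRCm39, with the matched bases in capitals.
Zmat3, 7-base match (chr3:32395292-32395315): tgcggttttaggtttACGCACAtt
Mdm2, 7-base match (chr10:117525476-117525499): tggatgcacgcatgcACGCACAca
Mdm2, 6-base match (chr10:117525456-117525479): cacacacgcgcgcgtgCGCACAca
The letters CGCACA, which all 3 matches hold, begin at positions 632 and 652 of the 3' UTR of Mdm2 and at position 334 of that of Zmat3. A match is a description of the letters, not of a site in use.

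p53 binds a response element made of 2 half-sites of 10 bases, each with a core of C, 2 bases that are A or T, and G. Elements without a gap, with both cores exact and at most 2 mismatches in the flanking bases, were searched within 2500 bases of each canonical start site in GRCm39. The element reads the same on both strands. Zmat3 and Ccng1 hold 1 each and the other 8 members none in this window, where 2.91% of 21770 protein-coding genes hold one and 0.0827% hold one with no mismatch. Both lie in intron 1, and they are shown on the strand of the gene, the minus strand, with the cores in capitals.
Zmat3 (chr3:32418480-32418499, no mismatch, 1418 bases after the start site): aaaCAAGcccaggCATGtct
Ccng1 (chr11:40645763-40645782, 1 mismatch, 365 bases after the start site): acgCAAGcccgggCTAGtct
Elements with a gap or farther from the start, as p53 targets often have, were not searched, and a member without an element here is no less a p53 target.

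Trp53 (chromosome 11, 69469669 to 69482701) was a modestly expressed gene whose level followed the polarization state. Its libraries had 29.7, 28.1 and 31.1 CPM in WT M0, 32.8, 29.7 and 31.8 in KO M0, 35.1, 38.3 and 36.3 in WT M2, and 39.3, 37 and 36.2 in KO M2. All 6 M2 libraries lay above all 6 M0 libraries, and the genotypes overlapped in both states. Mdm2 (chromosome 10, 117524780 to 117546730), the ligase that keeps p53 low, had 229, 192 and 201 CPM in WT M0, 200, 209 and 226 in KO M0, 198, 215 and 197 in WT M2 and 209, 206 and 212 in KO M2. Its 4 groups overlapped, within a range of 192 to 229 CPM.

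Cdkn1a (chromosome 17, 29309936 to 29319701), whose product p21 inhibits cyclin-dependent kinases, had 208, 156 and 168 CPM in WT M0, 158, 162 and 196 in KO M0, 180, 151 and 192 in WT M2 and 184, 197 and 225 in KO M2, and all groups overlapped. Ccng1 (chromosome 11, 40639377 to 40646148), whose product recruits a phosphatase to Mdm2, had 369, 309 and 351 CPM in WT M0, 372, 325 and 353 in KO M0, 302, 298 and 287 in WT M2 and 343, 344 and 326 in KO M2. The 3 WT M2 libraries were the lowest of the 12. The same held for Zmat3 (chromosome 3, 32388941 to 32420163), with 153, 125 and 126 CPM in WT M0, 114, 141 and 129 in KO M0, 100, 100 and 108 in WT M2 and 119, 119 and 146 in KO M2. Zmat3 and Ccng1 are also the genes with the response elements shown above, and a link between the elements and these levels was not tested.

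Sesn1 (chromosome 10, 41685931 to 41784423) encodes sestrin 1, which restrains mTORC1 and supports the reduction of peroxiredoxins. It had 133, 128 and 139 CPM in WT M0, 120, 121 and 112 in KO M0, 141, 145 and 124 in WT M2 and 152, 152 and 148 in KO M2. The miR-210 KO M0 libraries were the lowest of the 12 and the miR-210 KO M2 libraries the highest. Trp53inp1 (chromosome 4, 11156412 to 11175230), which encodes a p53-induced stress protein of the nucleus and of autophagosomes, had 167, 113 and 128 CPM in WT M0, 125, 122 and 130 in KO M0, 109, 125 and 107 in WT M2 and 130, 121 and 106 in KO M2. Apart from 1 WT M0 library at 167 CPM, its libraries lay between 106 and 130.

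Phlda3 (chromosome 1, 135693809 to 135697686) encodes a protein of a single pleckstrin homology domain that keeps Akt from the membrane. It had 21.2, 11.1 and 15 CPM in WT M0, 15.1, 10.5 and 13 in KO M0, 27.5, 26.3 and 26.3 in WT M2 and 30.3, 27.4 and 26.7 in KO M2, so that all M2 libraries were above all M0 libraries. Aen (chromosome 7, 78545602 to 78560957), the gene of an apoptosis-enhancing nuclease, had 38, 32.6 and 42 CPM in WT M0, 46, 33.6 and 45.7 in KO M0, 36.1, 36.8 and 39.4 in WT M2 and 35.9, 36.6 and 40.2 in KO M2, with all groups overlapping. Eda2r (chromosome X, 96320270 to 96420847), a receptor of the tumour necrosis factor family for ectodysplasin A2, was close to the limit of detection, at 1.02, 0.619 and 0.203 CPM in WT M0, 0.222, 0.475 and 0.596 in KO M0, 1.06, 1.47 and 0.371 in WT M2 and 1.47, 0.835 and 1.37 in KO M2. These levels rest on 2 to 14 counts a library.

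**Figure D1:**
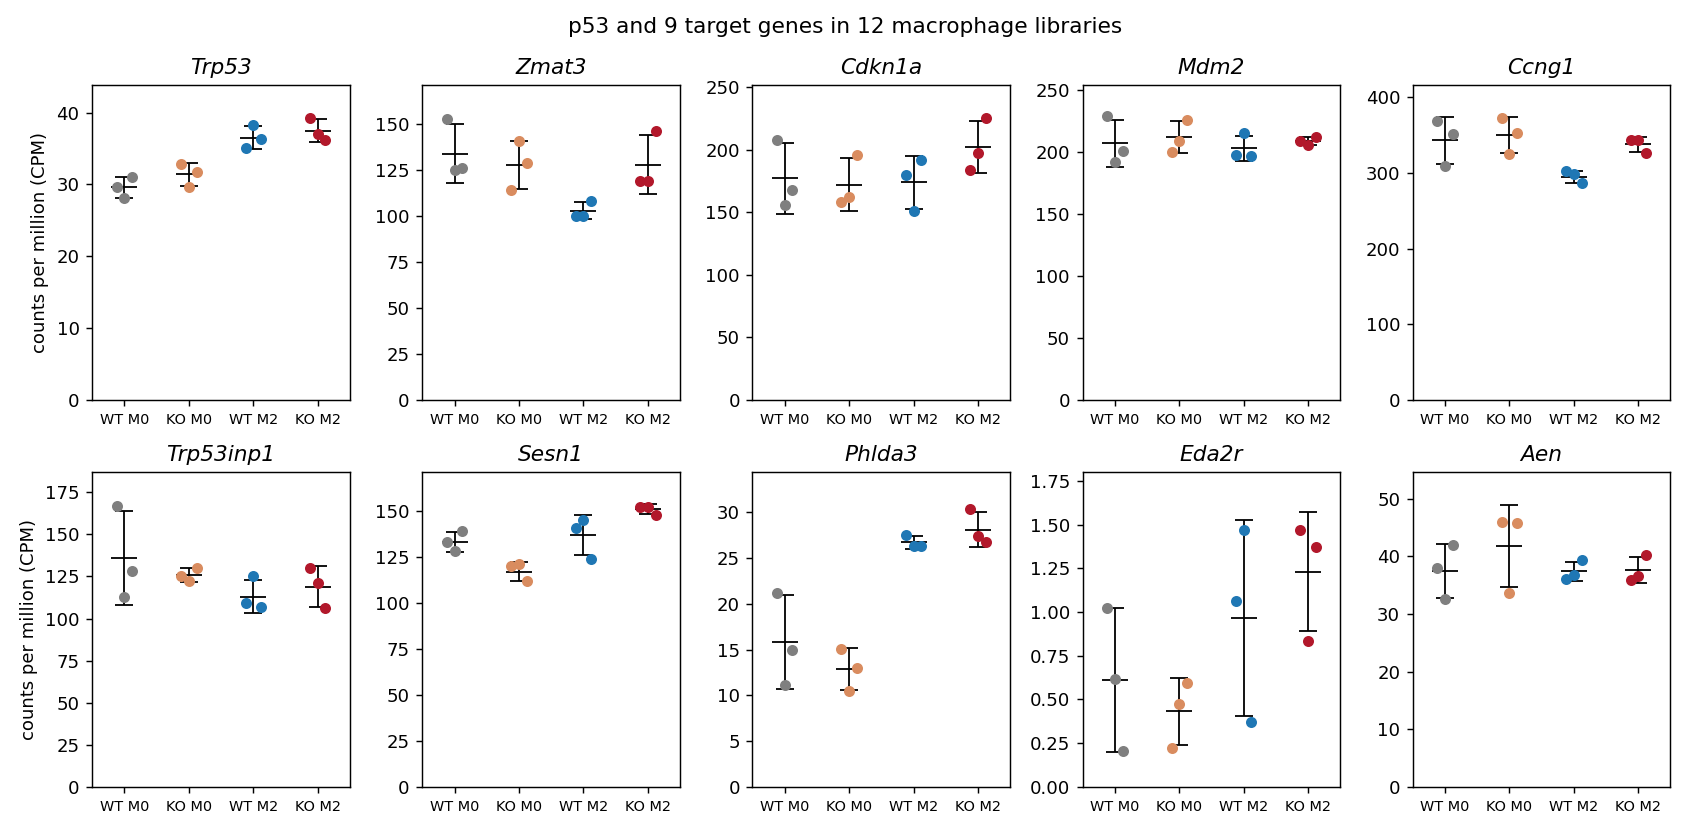
Level of each of the 10 genes in CPM (vertical axes, each from 0), with a point for each of the 3 libraries of WT M0, KO M0, WT M2 and KO M2 and black bars for the mean and SD. Phlda3 and Trp53 stand higher in both M2 groups, the WT M2 points of Zmat3 (100 to 108) and Ccng1 (287 to 302) lie under all others, and Eda2r reaches 1.47 CPM at most.

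Set against the length of all exons, so that genes can be compared, Ccng1 had the highest level of the 10, a mean over the 12 libraries of 75.4 CPM per kilobase. Cdkn1a (30), Mdm2 (27) and Sesn1 (26.7) followed on this scale, and did not differ from each other beyond their SD in either WT group. In miR-210 KO M0 Sesn1 was at 23.3 ± 0.99 CPM per kilobase, under Mdm2 at 27.4 ± 1.8, and in miR-210 KO M2 the order of both was the opposite, 29.9 ± 0.53 and 27.1 ± 0.42 (SD, n = 3 each). Trp53inp1 (16.8), Zmat3 (10.8), Phlda3 (8.06), Trp53 (4.58), Aen (3.4) and Eda2r (0.108) had lower levels on this scale, with Phlda3 and Trp53 within their SD of each other in M0 but not in M2. The order depends on the length taken: per kilobase of the canonical transcript Trp53 was at 18.3, above Zmat3 (15.7) and Phlda3 (9.09), and Cdkn1a (94.3) was level with Ccng1 (94.4). On either scale the inhibitor Mdm2 was expressed above Trp53. Overlapping genes on the opposite strand were reported for Trp53 (Wrap53), Cdkn1a, Mdm2, Ccng1 (Nudcd2) and Sesn1 (Cep57l1), which strand-specific counting keeps apart, and reads in the overlap of Sesn1 with the tentatively annotated transcript 9930024M15Rik on its own strand could have been left uncounted.

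The first comparison asked whether loss of miR-210 changed the p53 genes of resting macrophages. No change was detectable at this depth and spread: of the 9 members with enough counts for a test, 0 were called between miR-210 KO M0 and WT M0 by edgeR's quasi-likelihood test, 0 by the DESeq2 Wald test, and 1 had an unadjusted p under 0.05. Genes were called when the adjusted p was under 0.05 and the change exceeded 1.2-fold in either direction, and over all 14089 genes tested 0.220% were called higher and 0.241% lower. The 1 gene was Sesn1, lower in all 3 miR-210 KO libraries than in each WT library, 0.882-fold with a 95% confidence interval from 0.783 to 0.993 (adjusted p = 0.46, edgeR). Trp53 was at 1.06-fold (0.921 to 1.22), Mdm2 at 1.02-fold (0.89 to 1.18), Cdkn1a at 0.972-fold (0.809 to 1.17) and Ccng1 at 1.02-fold (0.887 to 1.17). Each of these intervals included 1. Trp53inp1 was at 0.927-fold (0.768 to 1.12) and Aen at 1.11-fold (0.906 to 1.37). The interval was widest for Phlda3, 0.822-fold (0.591 to 1.14), whose WT M0 libraries ranged from 11.1 to 21.2 CPM. Of the 9 genes 4 had a positive and 5 a negative log2 fold change, with a median of -0.04 beside 0.00 over all genes tested.

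In M2 macrophages all 10 members had a positive log2 fold change of miR-210 KO over WT, and 0 passed the test. The median was 0.11, while 7074 of all 13980 genes tested were positive with a median of 0.00. By edgeR 0 of the 10 were called, where 0.408% of all genes were called higher and 0.572% lower, and 4 had an unadjusted p under 0.05, a share of 40% beside 10.7% of all genes. The 10 share the same 6 libraries and are not independent of each other.

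The 4 were Zmat3, Ccng1, Cdkn1a and Sesn1. Zmat3 was 103 ± 4.4 CPM in WT M2 and 128 ± 16 in miR-210 KO M2 (SD, n = 3 each), 1.25-fold higher (95% confidence interval 1.11 to 1.41, log2 fold change 0.32, standard error 0.08, adjusted p = 0.064 by edgeR's quasi-likelihood test). All 3 miR-210 KO libraries lay above all 3 WT libraries. It was called by the DESeq2 Wald test (adjusted p = 0.044) and by edgeR without the filter on low counts. It was also called with the library number, whose meaning is not given, as a replicate block. Over all alternatives its adjusted p ranged from 6.1e-04 to 0.33. Ccng1 was 1.15-fold higher (1.06 to 1.24, adjusted p = 0.096, edgeR), again with no overlap. Its log2 fold change of 0.20 was under the limit on size and lay between 0.18 and 0.22 with any 1 library left out. Cdkn1a was 1.16-fold higher (1.02 to 1.32, adjusted p = 0.35) and Sesn1 1.11-fold (1.01 to 1.22, adjusted p = 0.43). The groups overlapped for Cdkn1a and did not for Sesn1.

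The intervals of the remaining 6 members in M2 included 1-fold. Trp53 itself was 1.03-fold (0.916 to 1.15), Mdm2 1.03-fold (0.95 to 1.12), Trp53inp1 1.05-fold (0.936 to 1.19), Phlda3 1.06-fold (0.929 to 1.2) and Aen 1.01-fold (0.895 to 1.13). The interval was narrowest for Mdm2. Eda2r, at 1.21-fold (0.645 to 2.28), was too rare for a statement. Zmat3 and Mdm2, the members with a 7-base match to the miR-210-3p seed, stood in M2 at 1.25-fold and 1.03-fold, and in M0 at 0.954-fold (0.811 to 1.12) and 1.02-fold.

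**Figure D2:**
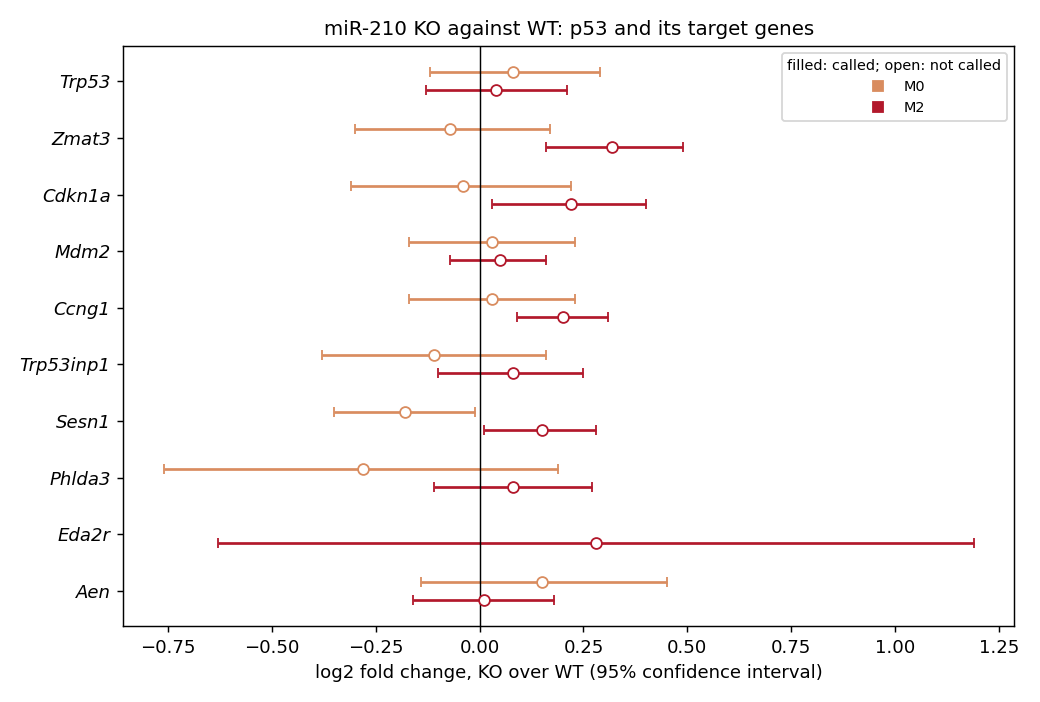
Log2 fold change of miR-210 KO over WT (horizontal axis) with its 95% confidence interval for each member, in M0 (orange) and M2 (red), where open symbols mark genes that were not called. All symbols are open, the M2 intervals of Zmat3 (0.16 to 0.49), Ccng1 (0.09 to 0.31), Cdkn1a (0.03 to 0.40) and Sesn1 (0.01 to 0.28) lie above 0, and Eda2r has no M0 value because it had too few counts.

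The second question was how IL-4 moved the same genes. In WT macrophages 3 of the 9 members tested were called, Phlda3 and Trp53 higher and Zmat3 lower in M2 than in M0. Calls for IL-4 also required a protein-coding gene with an average normalized count over 10, and 23.6% of the 11134 genes that met this were called higher and 21.8% lower, so that 2 higher and 1 lower of 9 is close to what all genes show. The median over the 9 was -0.02.

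Phlda3 rose 1.72-fold in WT (95% confidence interval 1.34 to 2.21, log2 fold change 0.78, standard error 0.17, adjusted p = 0.0016, edgeR) and 2.19-fold in miR-210 KO (1.79 to 2.69, 1.13, standard error 0.14, adjusted p = 2.7e-05). It was the largest IL-4 change of the 9 in both genotypes, and was called with each library left out in turn. Trp53 rose 1.24-fold in WT (1.1 to 1.4, adjusted p = 0.0068, edgeR). In miR-210 KO its 1.19-fold difference (1.04 to 1.37, adjusted p = 0.043) had a log2 fold change of 0.25, under the limit on size, and of the fits with 1 library left out only that without library 1 of KO M0 called it. Zmat3 fell in WT to 0.769-fold (0.68 to 0.871, log2 fold change -0.38, adjusted p = 0.0019, edgeR), while in miR-210 KO it was at 1-fold (0.857 to 1.17, adjusted p = 0.99).

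In miR-210 KO macrophages 2 of the 9 members were called, Phlda3 and Sesn1, both higher, where 18.5% of 11116 genes were called higher and 18.1% lower. Sesn1 rose 1.28-fold (1.15 to 1.43, log2 fold change 0.36, standard error 0.07, adjusted p = 0.0019, edgeR), and in WT it was at 1.03-fold (0.925 to 1.15, adjusted p = 0.66). Ccng1 had a log2 fold change of -0.21 in WT (adjusted p = 0.029), under the limit on its size, and -0.05 in miR-210 KO. Trp53inp1 was at 0.842-fold in WT (0.706 to 1, adjusted p = 0.098) and 0.949-fold in miR-210 KO. Both were called in WT without the library numbered 2 of WT M0, which made 5 members of 9. The share of all genes called in that fit is not given here. Cdkn1a was at 0.987-fold in WT (0.84 to 1.16) and 1.17-fold in miR-210 KO (1.01 to 1.37, adjusted p = 0.1), and was called there without library 3 of KO M0. Mdm2 stood at 0.987-fold (0.883 to 1.1) and 0.989-fold (0.883 to 1.11). Aen was at 1-fold in WT and 0.901-fold in miR-210 KO (0.75 to 1.08), and was called in miR-210 KO without the library numbered 2 of M0. Eda2r was not tested for IL-4, and its 3 miR-210 KO M2 libraries (0.835 to 1.47 CPM) were above its 3 miR-210 KO M0 libraries (0.222 to 0.596 CPM).

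**Figure D3:**
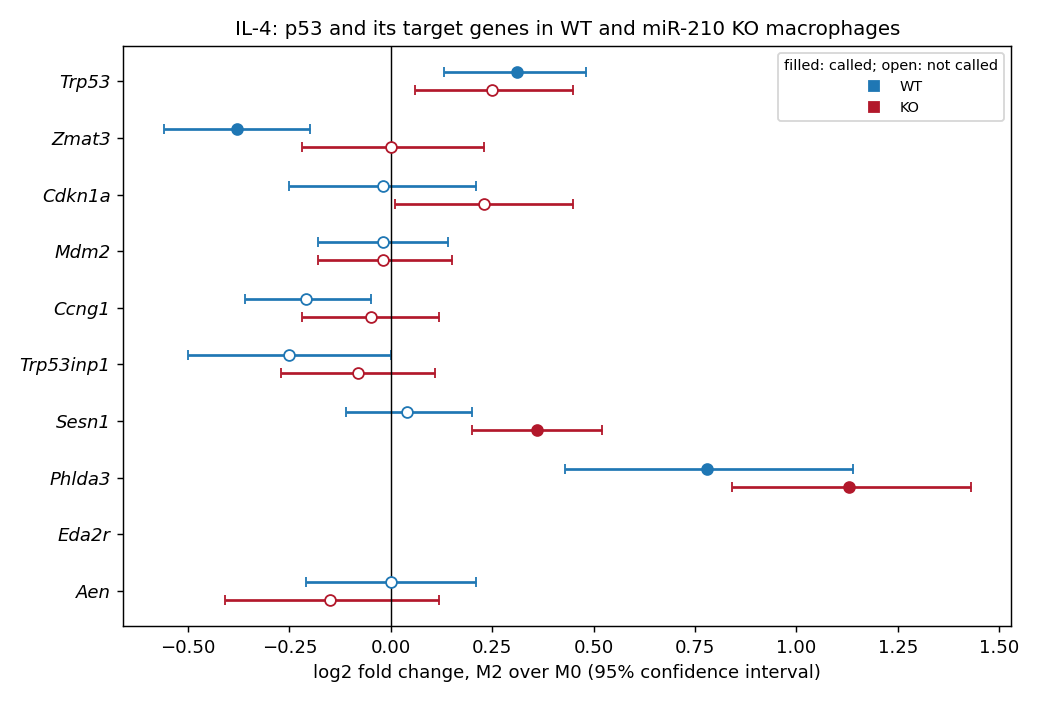
Log2 fold change of M2 over M0 (horizontal axis) with its 95% confidence interval for each member, in WT (blue) and miR-210 KO (red), where filled symbols mark called genes. Phlda3 is filled in both genotypes (0.78 and 1.13), Trp53 (0.31) and Zmat3 (-0.38) in WT and Sesn1 (0.36) in KO, and Eda2r had too few counts for the test.

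A call in one genotype and not in the other does not show that the responses differ, so the difference was tested over all 12 libraries. Of the 10 members 0 were called in this interaction test, in edgeR as in DESeq2, and over all 14825 genes tested edgeR called 0% in each direction. An unadjusted p under 0.05 was found for 1327 genes, and DESeq2 called 83 genes, none of them a member. Sesn1 and Zmat3 were the 2 members with an unadjusted p under 0.05. The IL-4 response of Zmat3 was higher in miR-210 KO than in WT by 0.39 on the log2 scale (95% confidence interval 0.09 to 0.69, adjusted p = 0.38) and that of Sesn1 by 0.32 (0.11 to 0.53, adjusted p = 0.29). For Sesn1 this joins a lower level in miR-210 KO M0 and a higher one in miR-210 KO M2, each without overlap and neither called. Phlda3, the gene that IL-4 moved most, had an interaction of 0.36 (-0.15 to 0.86, adjusted p = 0.69), and Mdm2 of 0.01 (-0.22 to 0.23). The WT and miR-210 KO responses rest on separate libraries, but the genotype and IL-4 comparisons share libraries, so that the low WT M2 values of Zmat3 and Ccng1 enter both comparisons.

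The rest of the p53 pathway was read from 77 further genes, 21 regulators of p53 and 56 other targets, of which 72 had enough counts for a test. Loss of miR-210 left nearly all of them uncalled, as it did nearly all genes. In M0 1 of 72 was higher and 0 lower, where 0.220% and 0.241% of all genes were. In M2 0 were higher and 1 lower, where 0.408% and 0.572% of all genes were. The gene called in M2 was Plk2, a polo-like kinase of the arrest targets. Without miR-210 it fell from 984 ± 73 to 754 ± 25 CPM (SD, n = 3 each), or by 0.38 ± 0.06 (SE) on the log2 scale (adjusted p = 0.0026 by edgeR), with all 3 miR-210 KO libraries below all 3 WT libraries. It was called with each of the 6 libraries left out, and lost its call in a fit of all 12 libraries (adjusted p = 0.49). Its log2 fold change in M0 was -0.17 (95% confidence interval -0.55 to 0.21, adjusted p = 0.8). In M2 45 of the 72 genes were positive and 27 negative, with a median of 0.04 beside 0.00 over all genes. By list, 9 regulators were positive and 9 negative, as were 2 and 6 of the arrest targets, 9 and 2 of the apoptosis targets, 6 and 0 of the DNA repair targets, 12 and 6 of the metabolism and autophagy targets and 7 and 4 of the other targets.

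With IL-4, the wider pathway moved in both directions. In WT, 18 of the 71 genes that could be called were higher and 22 lower, where 23.6% and 21.8% of all genes were. In miR-210 KO 16 of 71 were higher and 17 lower, where 18.5% and 18.1% of all genes were. The medians were -0.03 and -0.09 beside -0.00 and -0.01 over all genes. Of the 8 arrest targets 5 were called higher and 1 lower in WT (median 0.57), and 3 and 1 in miR-210 KO (median 0.16). Of the 6 DNA repair targets 0 were called higher and 2 lower in WT (median -0.18), and 0 and 1 in miR-210 KO (median -0.11). Lists this short are described by their counts and were not tested against other genes.

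Among the 18 regulators of p53 tested, 1 rose and 7 fell in WT, where 23.6% of all genes rose and 21.8% fell. Hipk2, a kinase that phosphorylates p53, went from 101 ± 5 to 255 ± 15 CPM (log2 fold change 1.33), while the acetyltransferase gene Ep300 fell from 310 ± 10 to 199 ± 16 (-0.64) and Trp53bp1, the gene of the damage-response scaffold 53BP1, from 73.4 ± 8.7 to 48.8 ± 3.8 (-0.59; SD, n = 3 each). In miR-210 KO 1 rose and 4 fell, where 18.5% and 18.1% of all genes did. Hipk2 rose there by 1.35 on the log2 scale, Trp53bp1 was called at -0.35, and Ep300 was at -0.23 (adjusted p = 0.13, edgeR) and not called.

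The arrest targets with the largest rises in WT were the polo-like kinases Plk3, from 10.2 ± 2.5 to 39.8 ± 2.3 CPM (log2 fold change 1.95), and Plk2, from 287 ± 77 to 984 ± 73 (1.78). Gadd45a, a growth arrest and stress gene, fell from 21.4 ± 7.8 to 12.5 ± 0.85 (-0.75; SD, n = 3 each). In miR-210 KO the 3 genes were called in the same directions, at 0.91, 1.56 and -1.05.

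Of the 11 apoptosis targets tested 2 rose and 4 fell in WT, where 23.6% of all genes rose and 21.8% fell. In miR-210 KO 2 rose and 4 fell as well, where 18.5% and 18.1% of all genes did. Bax, Pmaip1 and Bid were called lower in both genotypes, Ei24 in WT only and Bbc3 in miR-210 KO only, names given here after their values were seen. Ei24 had a log2 fold change of -0.26 in miR-210 KO (adjusted p = 0.047, edgeR), under the limit on size. Bbc3 was at -0.24 in WT (adjusted p = 0.17, edgeR) and -0.28 in miR-210 KO. Neither was called in the interaction test (adjusted p = 0.77 and 0.97, edgeR). Tnfrsf10b, the mouse TRAIL receptor, rose from 1.84 ± 0.33 to 5.91 ± 0.39 CPM in WT (log2 fold change 1.67) and Steap3, a ferrireductase, from 50.2 ± 2 to 80.7 ± 0.98 (0.69). In miR-210 KO they rose by 1.46 and 0.88 on the log2 scale. The BH3-only genes Pmaip1, which encodes Noxa, and Bid fell in WT, from 11.5 ± 2 to 4.62 ± 0.41 (-1.29) and from 40.2 ± 0.76 to 26.1 ± 1.7 (-0.62). In miR-210 KO they were called at -1.04 and -0.58. The repair genes Xpc and Polk fell in WT by 0.50 and 0.33 on the log2 scale, and in miR-210 KO Xpc was called at -0.41 and Polk, at -0.13 (adjusted p = 0.25, edgeR), was not.

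Metabolism and autophagy targets had 7 higher and 4 lower of 18 in WT, where 23.6% of all genes were higher and 21.8% lower. In miR-210 KO they had 8 and 3, where 18.5% and 18.1% of all genes were. Ephx1, an epoxide hydrolase, went from 24.9 ± 3.7 to 88.7 ± 5 CPM in WT (log2 fold change 1.84) and the glutathione peroxidase Gpx1 from 317 ± 39 to 903 ± 22 (1.52). Sesn3, the sestrin related to the member Sesn1, fell in WT by 0.73 and the pantothenate kinase Pank1 by 0.63 on the log2 scale. In miR-210 KO Ephx1 (2.16), Gpx1 (1.48) and Sesn3 (-0.54) were called and Pank1, at -0.33 (adjusted p = 0.068, edgeR), was not. Of the other targets in WT, the adenylate kinase gene Ak1 (1.58) and the cytoskeleton-associated Ckap2 (0.69) rose, and Gdf15, a stress-induced cytokine, fell from 132 ± 49 to 50.7 ± 11 CPM (-1.38). In miR-210 KO Ak1 (1.49) and Gdf15 (-2.08) were called and Ckap2, at 0.32 (adjusted p = 0.22, edgeR), was not. Trp53cor1, the long noncoding RNA lincRNA-p21 that lies beside Cdkn1a, was outside the rule for calls because it is not protein-coding. It was picked after its values were seen: it had 12.2 ± 0.88 CPM in WT M0 and 2.73 ± 0.21 in WT M2 (log2 fold change -2.15, adjusted p = 2.0e-07, edgeR), and 12.3 ± 1.2 and 2.67 ± 0.31 in miR-210 KO, while Cdkn1a itself overlapped between all groups.

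**Figure D4:**
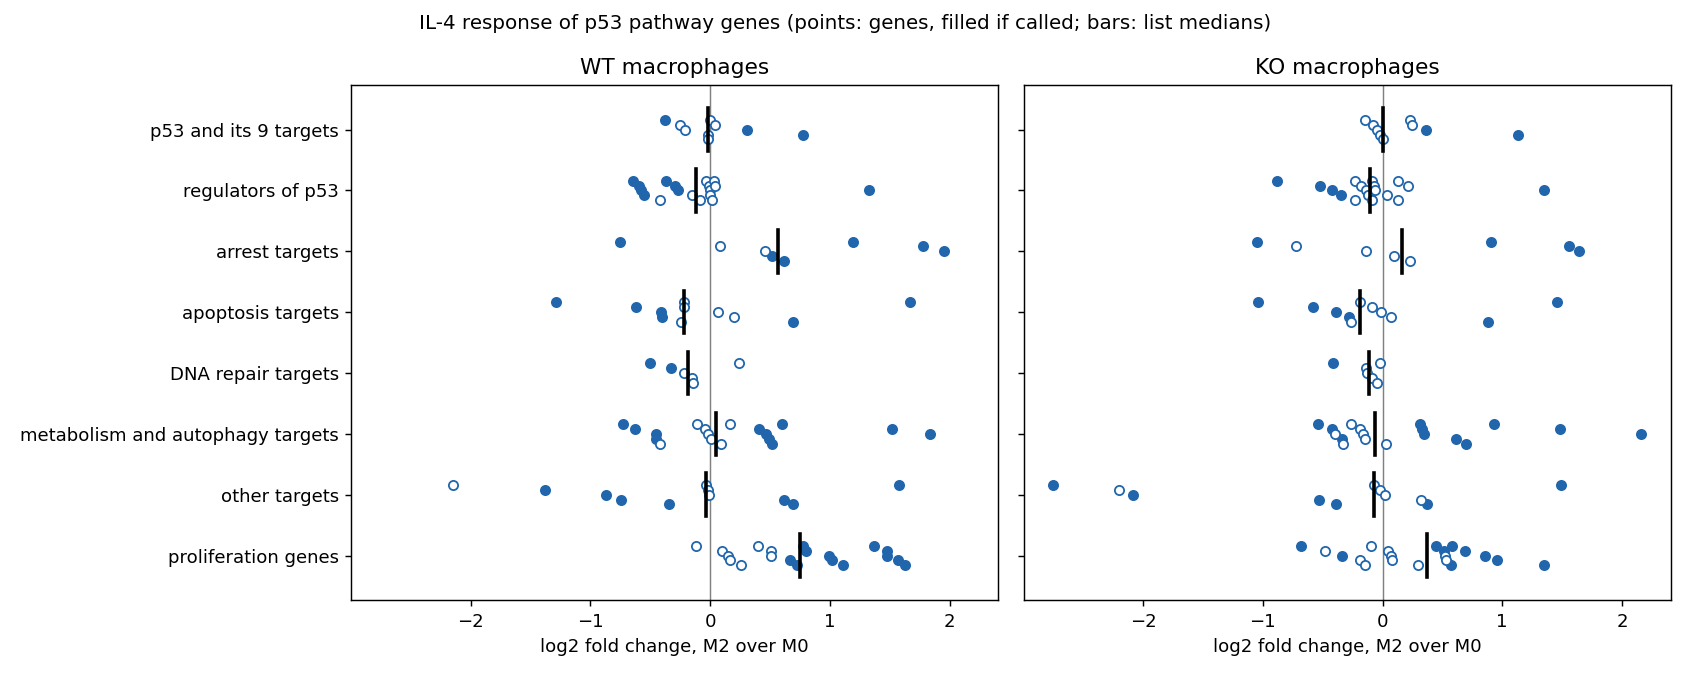
Log2 fold change of M2 over M0 (horizontal axes, the same scale in both panels) for each tested gene of the p53 lists in WT (left) and miR-210 KO (right), with filled points for called genes and black bars for the median of each list. In WT the medians are 0.57 for the arrest targets, -0.22 for the apoptosis targets and 0.76 for the proliferation genes, and the open point near -2 among the other targets is the noncoding Trp53cor1.

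Genes of proliferation, which p53 lowers through p21 and the DREAM repressor complex, were described as a list of 20. In miR-210 KO M0 all 20 had a positive log2 fold change over WT M0, with a median of 0.57 beside 0.00 over all genes. For most of them the KO M0 and WT M0 libraries overlapped. Of the 20, 11 (55%) had an unadjusted p under 0.05 in edgeR, beside 10% of all genes, and 0 were called. The 20 share the same libraries and are not independent of each other. In M2 13 were positive and 7 negative, with a median of 0.08 and 0 called, where 7074 of all genes were positive and 6906 negative. With IL-4 12 of the 20 rose and 0 fell in WT (median 0.76), where 23.6% of all genes rose and 21.8% fell. In miR-210 KO 8 of the 20 rose and 2 fell (median 0.37), where 18.5% and 18.1% of all genes did. Cdc25c, a phosphatase that opens mitosis, rose by 1.63 in WT and 0.86 in miR-210 KO on the log2 scale, and Cdc20, an activator of the anaphase-promoting complex, by 1.57 and 0.69. Their levels were low, with Cdc20 at 2.32 ± 0.79 CPM in WT M0 and 6.78 ± 1.1 in WT M2 (SD, n = 3 each). All 20 interaction terms were negative, with a median of -0.49 beside -0.00 over all genes, of which 7370 were positive and 7455 negative. In edgeR 4 of the 20 terms (20%) had an unadjusted p under 0.05, beside 8.95% of all genes, and 0 were called. These terms use the same KO M0 and WT M0 libraries again. The RNA of Cdkn1a, the gene of p21, was at 0.972-fold in miR-210 KO M0 over WT M0 (confidence interval 0.809 to 1.17). Counts of RNA do not measure the p21 protein or its activity, and a link between p21 and the 20 genes was not tested.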

How the data were processed

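RNA-seq of 12 macrophage cultures was used, 3 libraries in each of 4 groups. The authors trimmed the reads (Trimmomatic), removed duplicates (Picard), aligned the rest to GRCm39 (STAR) and assigned them to genes by strand (featureCounts), and deposited the counts in 4 tables, a table for each pair of groups. Duplicate removal can compress the counts of genes with many fragments over a short length. The authors also deposited a signal, the counts divided by DESeq2 size factors set per pair, which was used for levels as an alternative. The name of each column gave its group, and its library number is not tied to a sample. Symbols, lengths and loci came from GENCODE M39 (GRCm39), which matched 56323 of the 56941 identifiers.

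Each comparison was tested in R 4.3.3 with edgeR 4.0.16 (quasi-likelihood test, TMM, filterByExpr, Benjamini-Hochberg adjustment over all genes tested), and DESeq2 1.42.0 was the alternative. Calls for IL-4 were restricted to protein-coding genes with an average normalized count over 10, and calls of the interaction had no fold limit. CPM are TMM-scaled. Levels per kilobase use the length of all exons of a gene. The fits were tested on simulated data. Members and gene lists were chosen with earlier results of these data known. Named were all members, other p53 genes called between genotypes, and per list the 2 largest rises and 2 largest falls with IL-4 in WT among called genes whose groups did not overlap, plus Mir210, Arg1, Retnla and Mrc1 as checks. Alternatives were DESeq2, RLE factors, no filter, no fold limit or a log2 limit of 1 in place of the 1.2-fold limit, the library number as a block, 1 fit across the 12 libraries and each library left out. The gene of the wider pathway called between the genotypes in M0 is not reported here. The same alternatives for Plk2 and the counts of other pathway genes were added after seeing the data.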

Additional observations from a re-analysis of the deposited data

How the results depend on the processing

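Most values held: of the log2 fold changes of the members, 286 under the settings with all libraries and 306 with 1 library left out kept their direction and their side of the threshold, and 3 and 31 changed sign, all of them uncalled. With the deposited normalized counts all 40 ratios of mean levels moved by less than the spread between libraries. In M2, 1 member (Zmat3) was called between miR-210 KO and WT by DESeq2, 1 without the filter on low counts and 1 with the library number as a replicate block, against 0. When calls needed a log2 fold change over 1, 0 members were called for IL-4 in WT and 1 in miR-210 KO (Phlda3). With 1 library left out, 3 to 5 members were called for IL-4 in WT, and 2 to 3 in miR-210 KO. The 5 came from leaving out WT M0 library 2, and the 3 from leaving out miR-210 KO M0 library 1, 2 or 3. The cause was not tested. The shares of all genes called with 1 library left out, or with a log2 limit of 1, are not given here, so these counts cannot be set against them. The log2 fold change of Aen for IL-4 in WT turned to -0.0036 when the 12 libraries were fitted together. Without the filter, that of Zmat3 for IL-4 in miR-210 KO turned to -0.0026 and that of Mdm2 in the interaction to -0.0038.

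With 1 library left out, the log2 fold change between genotypes in M0 ranged from -0.14 to 0.03 for Zmat3, -0.15 to 0.09 for Cdkn1a, -0.21 to 0.06 for Trp53inp1, -0.02 to 0.11 for Mdm2 and -0.03 to 0.09 for Ccng1, and in M2 from -0.04 to 0.05 for Aen and -0.07 to 0.73 for Eda2r. For IL-4 in WT it ranged from -0.10 to 0.11 for Cdkn1a, -0.07 to 0.06 for Mdm2 and -0.09 to 0.09 for Aen, and in miR-210 KO from -0.11 to 0.07 for Zmat3 and -0.06 to 0.02 for Mdm2. The interaction of Mdm2 ranged from -0.08 to 0.05.

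Whether the library numbers mark a shared animal or day is not given, so that pairing is unresolved. Deviations of same-numbered libraries correlated by 0.13, 0.40 and 0.03 between the genotypes in M0, and by -0.10, 0.11 and 0.09 in M2. Between the states they correlated by -0.05, -0.11 and -0.06 in WT and 0.08, -0.33 and -0.00 in miR-210 KO. As a replicate block the library numbers gave 284 calls over all genes against 65 between the genotypes in M0, and 289 against 137 in M2. For IL-4 the block gave 4934 against 5055 in WT and 3757 against 4065 in miR-210 KO, and 0 against 0 in the interaction. Apart from Zmat3 in M2 it changed no call of a member.

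With DESeq2 207 genes were called between the genotypes in M0 and 130 in M2. Of the other pathway genes, dropping the filter on low counts gave 5 higher in miR-210 KO M0 against 1. In M2 it gave 2 higher and 3 lower against 0 and 1. In the interaction it gave 1 higher and 4 lower against 0 and 0. The share of all genes called without the filter is not given here, so these counts are not read as a trait of the pathway. The block gave 2 higher in M0, and 2 higher and 2 lower in M2. Over all genes its calls also went up, to 284 against 65 in M0 and 289 against 137 in M2. Calls that needed a log2 fold change over 1 came to 8 higher and 2 lower for IL-4 in WT and 7 and 4 in miR-210 KO, without the share of all genes beside them. A count of 2 to 14 a library limits Eda2r, and the batch cannot be told apart from the group.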
